A study of Mus musculus with 7 samples.

Results

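Neutrophil granule genes were followed in RNA-sequencing libraries of splenic CD4+CD25+ cells, the fraction of CD4 T cells that is rich in regulatory T cells (Tregs). The members are 10 genes chosen by symbol in the deposited table, namely S100a8, S100a9, Lcn2, Ngp, Camp, Ltf, Mmp8, Mmp9, Retnlg and Cxcr2, of 25469 genes with a count in at least 1 library. All 10 were found, and all 10 passed the filter on low counts. They were chosen with earlier results of these data known, so counts of called members are descriptions. The cells were taken with magnetic beads from wild-type mice, in 3 biological replicates of aged mice (18-month old) and 4 of young mice (8-week old by the labels, while the methods of the study give another age for its young mice). By those methods the animals were male C57BL/6 mice. The cells were enriched on beads and not gated one by one, so a library holds the RNA of every cell that came through it. The question asked of these genes was whether the transcripts of neutrophils in the isolate differed between aged and young mice, and whether genes of early and late granule stages differed in the same way.

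Neutrophils fill their granules in a fixed order while they mature in the bone marrow. Promyelocytes make azurophil granules with myeloperoxidase and serine proteases, myelocytes then make specific granules with lactoferrin and antimicrobial proteins, and later cells make gelatinase granules. Transcription of the granule genes is largely shut off by the time a neutrophil leaves the marrow, whereas Cxcr2 marks the mature cell. The spleen holds mature neutrophils and, in the red pulp, sites of extramedullary blood formation.

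The members were set in 3 groups. The cytosolic pair S100a8 (chr3:90668978-90670035, plus strand) and S100a9 (chr3:90692632-90695721, minus strand) encodes calprotectin, a calcium- and zinc-binding protein that fills the neutrophil cytosol. Both genes lie next to each other, 22.6 kb apart on chromosome 3. The specific granule group holds Lcn2 (chr2:32384633-32388252, minus strand), which encodes the siderophore-binding lipocalin, and Ltf (chr9:111019271-111042767, plus strand), which encodes lactoferrin. It also holds Camp (chr9:109847379-109849617, minus strand), which encodes cathelicidin, and Ngp (chr9:110419747-110423012, plus strand), which encodes neutrophilic granule protein. Camp, Ngp and Ltf share a stretch of chromosome 9, with 570.1 kb between Camp and Ngp and 596.3 kb between Ngp and Ltf. The later group holds Mmp8 (chr9:7558456-7568485, plus strand) and Mmp9 (chr2:164940780-164955850, plus strand), the genes of neutrophil collagenase and gelatinase B. Its other genes are Retnlg (chr16:48872621-48874496, plus strand), of the resistin family, and Cxcr2 (chr1:74153989-74161246, plus strand), the receptor for neutrophil-attracting chemokines. Coordinates and exon lengths follow GENCODE M21 (build GRCm38). No exon of the 10 genes overlaps an exon of another gene in that annotation, so 0% of their exon length is open to reads shared by overlap.

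The promoters of the specific granule group are printed because these genes moved together between libraries, with that of Cxcr2 for contrast. Each runs from 250 bases before to 50 after the start that RefSeq gives, 5′ to 3′ on the strand of the gene, on GRCm38.p6, and RefSeq held a promoter for 9 of the 10 members (Mmp9 is named only). The RefSeq start need not be the outermost GENCODE start used for the gene coordinates above. It lies 513 bases inside the GENCODE gene for Lcn2, 161 for Camp, 61 for Ngp, 21 for Ltf and 5 for Cxcr2, so that the whole Lcn2 window lies within the GENCODE gene. Capitals mark matches to TTNNGCAA or its reverse complement TTGCNNAA, the letters of a site for the C/EBP transcription factors, of which C/EBP epsilon drives specific granule genes. The windows are chr2:32387690-32387989 (Lcn2, minus), chr9:110419558-110419857 (Ngp, plus), chr9:109849407-109849706 (Camp, minus), chr9:111019042-111019341 (Ltf, plus) and chr1:74153744-74154043 (Cxcr2, plus).
Lcn2: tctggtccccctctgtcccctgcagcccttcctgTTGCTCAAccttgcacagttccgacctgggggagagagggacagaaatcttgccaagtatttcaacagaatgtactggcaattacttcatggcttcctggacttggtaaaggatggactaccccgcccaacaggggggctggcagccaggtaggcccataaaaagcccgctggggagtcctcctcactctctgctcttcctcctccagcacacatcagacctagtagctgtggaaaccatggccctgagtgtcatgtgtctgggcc
Ngp: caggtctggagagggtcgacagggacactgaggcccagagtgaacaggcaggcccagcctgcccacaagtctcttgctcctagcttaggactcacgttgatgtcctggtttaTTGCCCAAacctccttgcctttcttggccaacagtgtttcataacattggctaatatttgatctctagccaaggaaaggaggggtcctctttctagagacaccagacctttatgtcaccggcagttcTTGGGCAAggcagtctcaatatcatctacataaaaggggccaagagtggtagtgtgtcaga
Camp: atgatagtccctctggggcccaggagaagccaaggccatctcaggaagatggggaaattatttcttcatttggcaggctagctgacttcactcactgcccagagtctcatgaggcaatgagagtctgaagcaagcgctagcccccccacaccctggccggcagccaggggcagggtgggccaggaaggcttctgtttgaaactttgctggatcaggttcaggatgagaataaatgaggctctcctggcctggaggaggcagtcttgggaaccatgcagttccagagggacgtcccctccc
Ltf: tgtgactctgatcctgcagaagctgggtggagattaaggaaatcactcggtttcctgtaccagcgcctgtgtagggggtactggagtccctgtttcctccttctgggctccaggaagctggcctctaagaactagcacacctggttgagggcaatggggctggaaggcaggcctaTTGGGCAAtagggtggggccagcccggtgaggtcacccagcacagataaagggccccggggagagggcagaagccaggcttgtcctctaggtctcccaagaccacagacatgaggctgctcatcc
Cxcr2: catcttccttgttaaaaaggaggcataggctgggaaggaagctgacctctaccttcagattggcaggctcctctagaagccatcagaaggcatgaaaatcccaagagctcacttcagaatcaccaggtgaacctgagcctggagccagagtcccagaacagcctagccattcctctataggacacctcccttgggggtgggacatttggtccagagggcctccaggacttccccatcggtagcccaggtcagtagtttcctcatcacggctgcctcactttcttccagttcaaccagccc

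At least 1 match was found in 6 of the 9 promoters, those of S100a9, Lcn2, Ngp, Ltf, Mmp8 and Retnlg, against 10.8% of 32851 mouse promoters of the same length. Ngp held 2, one of them starting 11 bases before its RefSeq start. The matches of Lcn2 and Ltf started 216 and 75 bases before theirs. By the outermost GENCODE starts, the one of Lcn2 and that one of Ngp lie inside the gene. The windows of S100a8, Camp and Cxcr2 held none of these letters. The letters of the core of a PU.1 site, GAGGAA or TTCCTC, were in 5 of the 9 windows (S100a8, Lcn2, Ltf, Mmp8 and Cxcr2) and in 28.3% of all promoters. No match to one motif overlapped a match to the other in these windows. The matches describe letters and are no evidence of binding.

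The libraries held between 10734234 and 13649310 reads on genes, and the 4 young libraries were the deeper ones. A count of 3, taken as the floor of detection, was 0.21 to 0.302 CPM (the count scaled to the library size), and the members were read between 30 and 21016 times in a library. Treg genes were read in every library, with Foxp3 between 394 and 622 CPM. Of 9 Treg markers, 1 was called higher (Cd3e) and 1 lower (Lrrc32) in the aged libraries, near the 9.8% and 6.94% of all genes tested. CPM values here are on the TMM scale of edgeR, which corrects library sizes for a few very abundant genes. Together the members took 0.0299% to 0.106% of the gene counts in the young libraries, and 0.595%, 0.179% and 0.0721% in aged replicates 1, 2 and 3. Aged replicate 3 therefore lay within the young range of this share and the other aged libraries above it. In such bulk libraries, more neutrophils and more RNA per neutrophil cannot be told apart.

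Of the 10 members, 4 were called higher in the aged libraries and 0 lower (edgeR's quasi-likelihood test, Benjamini-Hochberg adjusted p under 0.05), where 9.8% of the 13904 genes tested were called higher and 6.94% lower. The 4 were S100a8 and S100a9 of the cytosolic pair and Retnlg and Cxcr2 of the later group. None of the 4 specific granule genes was called, although all 10 members had an unadjusted p under 0.05 in the direction of aged, as 17.6% of all genes tested did. The log2 fold changes of the 10 lay between 1.69 (Mmp9) and 2.43 (S100a9), with a median of 2.13, against 0.02 over all genes tested. With all libraries the members thus differed little in the size of the fitted change and more in its spread. Without aged replicate 1 they differed in size too, from 0.42 for Mmp8, 0.75 for Ngp and 0.77 for Ltf and Mmp9 to 1.52 for Cxcr2 and 1.63 for Retnlg. Standard errors ran from 0.356 for Cxcr2 to 0.792 for Ltf on the log2 scale.

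Cxcr2 (ENSMUSG00000026180), which lets mature neutrophils leave the marrow and follow CXC chemokines, stood at 23.4, 12.5 and 11.6 CPM in the aged libraries (replicates 1 to 3 in that order here and after), and at 6.12, 2.24, 4.34 and 4.09 CPM in the young ones (replicates 1 to 4). Every aged library lay above every young one. Cxcr2 averaged 15.8 ± 6.58 CPM in aged (SD, n = 3) and 4.20 ± 1.59 CPM in young libraries (SD, n = 4). Its log2 fold change was 1.92 (SE 0.356, adjusted p = 0.00993 from edgeR). Cxcr2 was called in all 16 alternative fits, with adjusted p-values from 2.52e-06 to 0.0449. Retnlg (ENSMUSG00000022651), whose product is a secreted resistin-like protein of granulocytes, stood at 56.1, 27.5 and 17.4 CPM in the aged libraries and at 6.29, 2.73, 12.7 and 7.31 CPM in the young ones. Its groups did not overlap either. Retnlg had a log2 fold change of 2.22 (SE 0.511, adjusted p = 0.0223 from edgeR) and was called in 13 of the 16 alternative fits, but not without young replicate 1 (adjusted p = 0.0651) or young replicate 4 (adjusted p = 0.0628).

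Mmp9 (ENSMUSG00000017737), gelatinase B of the last granules to form, stood at 80.8, 25.0 and 19.3 CPM in the aged libraries and at 16.7, 5.61, 17.1 and 12.4 CPM in the young ones. Again no aged value reached the young range, but aged replicates 2 and 3 were close to its upper end. The log2 fold change of 1.69 (SE 0.533) had an adjusted p of 0.0627 from edgeR and was not called. Mmp8 (ENSMUSG00000005800), neutrophil collagenase, whose protein is stored in specific granules, stood at 39.4, 10.3 and 4.49 CPM in the aged libraries and at 8.21, 2.10, 8.21 and 3.51 CPM in the young ones. Here aged replicate 3 lay inside the young range. The log2 fold change of 1.73 (SE 0.718) had an adjusted p of 0.136 from edgeR, and in the 16 alternative fits Mmp8 was called 0 times. In all, 4 members (Cxcr2, Retnlg, Mmp9 and S100a9) had groups that did not overlap with aged higher, as 15.5% of all genes tested did. For these 4 genes an exact permutation test of the mean CPM over the libraries gave a two-sided p of 0.0571. That is the smallest that this two-sided form allows with 3 against 4 libraries. For the other 6 genes the exact p was 0.114 to 0.229.

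**Figure D1:**
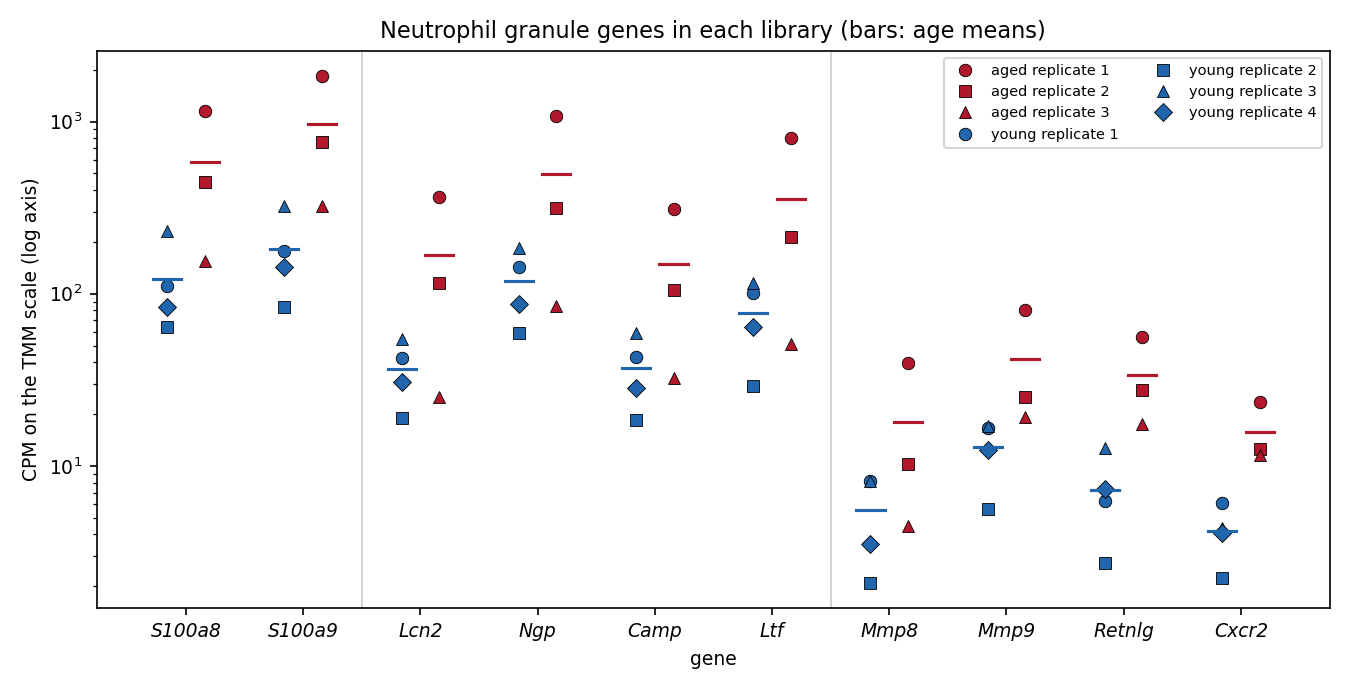
Level of each of the 10 genes in each of the 7 libraries, in CPM on the TMM scale and on a log axis, with aged libraries in red, young libraries in blue and short bars at the mean of each age. Aged replicate 1 is the highest library and young replicate 2 the lowest for all 10 genes, and aged replicate 3 lies among the young libraries for S100a8, the 4 specific granule genes and Mmp8.

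Per kilobase of exon, the cytosolic pair was the most abundant of the members in all 7 libraries. By CPM alone, Ngp stood above S100a8 in young replicates 1 and 4. S100a9 (ENSMUSG00000056071) stood at 1836, 758 and 324 CPM in the aged libraries and at 176, 83.9, 321 and 143 CPM in the young ones. Aged replicate 3 was thus barely above young replicate 3, and with libraries scaled by size only the groups overlapped (exact p = 0.114, two-sided permutation test). S100a9 had a log2 fold change of 2.43 (SE 0.596, adjusted p = 0.0278 from edgeR) and was called in 12 of the 16 alternative fits. S100a8 (ENSMUSG00000056054) stood at 1145, 442 and 155 CPM in the aged libraries and at 111, 63.9, 229.7 and 83.5 CPM in the young ones, so that aged replicate 3 lay below the highest young library. Its log2 fold change of 2.25 (SE 0.646, adjusted p = 0.0468 from edgeR) was close to the threshold, and was called in 7 of the 16 alternative fits. Without aged replicate 1 neither gene was called, with 1.58 (adjusted p = 0.0620) for S100a9 and 1.29 (adjusted p = 0.132) for S100a8. Both subunits kept a similar ratio in every library, between 0.479 and 0.762 reads of S100a8 per read of S100a9.

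Among the 10 members, the specific granule genes spread the most among the aged libraries, from 9.53 times between aged replicates 1 and 3 for Camp to 15.7 times for Ltf. Ltf (ENSMUSG00000032496), which encodes the iron-binding lactoferrin, stood at 797, 213.8 and 50.8 CPM in the aged libraries and at 101, 29.1, 115 and 64.1 CPM in the young ones. Aged replicate 3 was second lowest of the 7 libraries. Ltf averaged 354 ± 392 CPM in aged (SD, n = 3) and 77.4 ± 38.8 CPM in young libraries (SD, n = 4). Its log2 fold change was 2.19 (SE 0.792, adjusted p = 0.0937 from edgeR). Ngp (ENSMUSG00000032484), a cathelin-related protein, stood at 1080.3, 313 and 84.4 CPM in the aged libraries and at 143, 58.8, 184 and 86.7 CPM in the young ones. Its aged replicate 3 was below 3 of the 4 young libraries. The log2 fold change of Ngp was 2.06 (SE 0.728, adjusted p = 0.0886 from edgeR).

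Lcn2 (ENSMUSG00000026822), which withholds bacterial iron carriers, stood at 363, 116 and 25.0 CPM in the aged libraries and at 42.6, 19.0, 54.6 and 30.7 CPM in the young ones. Camp (ENSMUSG00000038357), the precursor of the antimicrobial cathelicidin peptide, stood at 308, 105 and 32.4 CPM in the aged libraries and at 43.2, 18.4, 59.0 and 28.3 CPM in the young ones. In both genes aged replicates 1 and 2 lay above the young range and aged replicate 3 inside it. Their log2 fold changes were 2.20 (SE 0.727, adjusted p = 0.0729) and 2.00 (SE 0.664, adjusted p = 0.0731), in that order, from edgeR. Without aged replicate 3 all 4 specific granule genes were called, with log2 fold changes of 2.48 (Camp) to 2.71 (Lcn2) and adjusted p-values from 0.0208 to 0.0377, and 8 of the 10 members were called in that fit, where 5.74% of all genes were called higher. Without aged replicate 1 their log2 fold changes were 0.75 (Ngp) to 0.94 (Lcn2), and 2 of the 10 members (Cxcr2 and Retnlg) were called, where 11.3% of all genes were called higher. With all 3 aged libraries and no filter on low counts, all 4 were called too (adjusted p-values from 0.0316 to 0.0466). The call of this group therefore rested on the aged libraries used and on the filter. The count of members called also moved with other settings. It was 9 with no filter on low counts (5.16% of all genes called higher), 1 without young replicate 1 (6.17%), 1 without young replicate 4 (5.71%), and 1 with replicate numbers as a block (1.45%), where the 1 was Cxcr2 each time.

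Relative to the mean of the young libraries, the log2 levels of the 4 specific granule genes averaged 3.36, 1.64 and -0.32 in aged replicates 1 to 3. For the 4 genes of the later group these averages were 2.84, 1.46 and 0.89. For the cytosolic pair they were 3.46, 2.13 and 0.76. In aged replicate 3 the 4 specific granule genes lay 0.07 to 0.45 below the young mean on the log2 scale, whereas 3 of the 4 later genes lay above it and Mmp8 0.08 below it. Cxcr2 and Retnlg were 2.75 and 2.56 times the young median in aged replicate 3, while Ltf was 0.615 and Lcn2 0.682 times it. In that library the 4 specific granule genes thus lay below Mmp9, Retnlg and Cxcr2 relative to the young mean, with Mmp8 among the specific granule genes, while in aged replicates 1 and 2 every member lay above the young mean.

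Ratios of reads within a library show the same without any scaling between libraries. Ltf had 34.0, 17.1 and 4.38 reads per read of Cxcr2 in aged replicates 1 to 3, and from 13 to 26.5 in the young libraries. Aged replicate 3 lay below the young range, aged replicate 1 above it and aged replicate 2 inside it. Ngp had 46.1, 25.0 and 7.27 reads per read of Cxcr2 in the aged libraries, and 21.2 to 42.4 in the young ones. S100a9 had 78.4, 60.7 and 27.9 reads per read of Cxcr2 in the aged libraries, against 28.8 to 73.9 in the young. Within the specific granule group the mix was steadier, since Camp had 0.285 to 0.384 reads per read of Ngp over all 7 libraries. None of these ratios separated the ages.

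**Figure D2:**
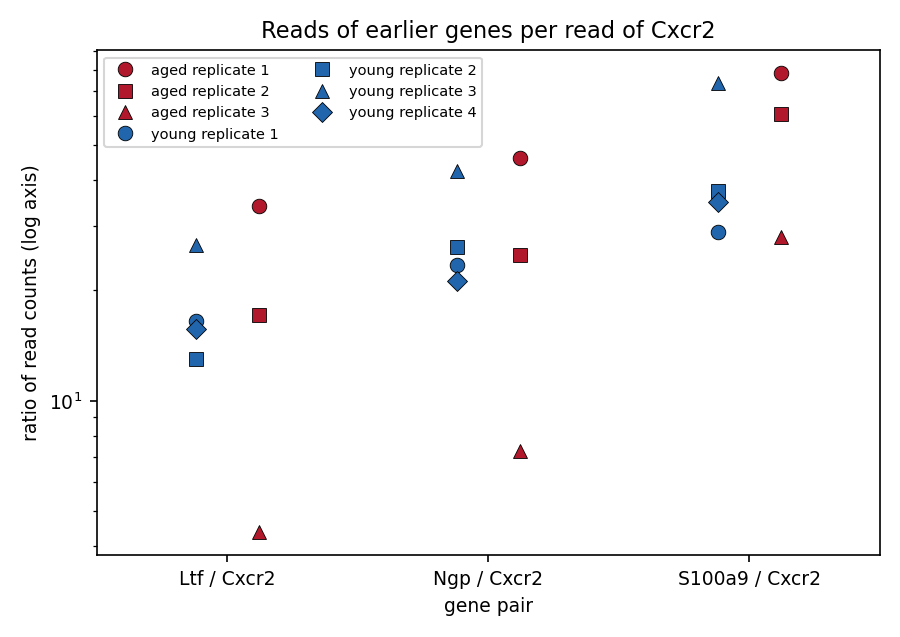
Reads of Ltf, Ngp and S100a9 per read of Cxcr2 in each library, on a log axis, with aged libraries in red and young libraries in blue. Aged replicate 3 has the lowest ratio for each gene (4.38 for Ltf) and aged replicate 1 the highest (34.0 for Ltf), with the young libraries between them.

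Levels between genes were compared per kilobase of exon. In CPM per kb, the age means ran from S100a9 (1863 in aged and 347 in young) over S100a8 (837 and 176), Ngp (403 and 96.8), Camp (196 and 49.1), Ltf (103 and 22.4), Lcn2 (64.0 and 13.99), Retnlg (56.8 and 12.2), Mmp9 (11.8 and 3.66) and Mmp8 (7.45 and 2.27) to Cxcr2 (5.20 and 1.38). The order was the same at both ages. Each gene stood above the next in all 7 libraries, except that Lcn2 was above Retnlg in 3 and Mmp8 above Cxcr2 in 6. Lcn2 and Retnlg thus could not be ordered. For comparison, Foxp3 stood at 113 CPM per kb in aged and 97.5 in young libraries, below S100a9 at both ages.

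Among themselves, the members varied together from library to library. With log2 CPM centred within each age, Pearson's r between 2 members over the 7 libraries was 0.695 to 0.998, with a median of 0.942 over 45 pairs. The 6 pairs within the specific granule group had r of at least 0.990. The 9 pairs with Cxcr2 had a median of 0.781. Mmp8 was closer to the specific granule genes (r = 0.945 to 0.973) and Mmp9 (0.960) than to Cxcr2 (0.887) or Retnlg (0.864), with Mmp9, Cxcr2 and Retnlg being of its own group. These values are descriptions, since the genes share libraries and 7 points hardly limit r. By the same measure, 5 genes outside the list were most like the mean of the members among 9418 genes whose mean log2 CPM was at least 3. They were Fanca (r = 0.998), Pygl (0.997), Hp (0.992), Cd177 (0.991) and Chil3 (0.984). Hp, Cd177 and Chil3 are granule or granulocyte genes, and Pygl is the glycogen phosphorylase of liver and leukocytes. Fanca, of the Fanconi anaemia repair complex, followed the members only within an age and had a log2 fold change of -0.10 (adjusted p = 0.791 from edgeR).

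Other genes of the granulocyte programme were taken from lists and set in the order of maturation. These lists, and those of the paragraphs that follow, were chosen with earlier results of these data known. Their counts of called genes are therefore descriptions. Of 6 azurophil granule genes, 0 were called in either direction, a count near the background of 16.7% of all genes tested, with a median log2 fold change of 0.11, and none had an unadjusted p under 0.05 in edgeR. Mpo, which encodes myeloperoxidase, stood at 46.8, 22.6 and 3.46 CPM in the aged libraries and at 13.98, 33.8, 45.3 and 10.03 CPM in the young ones. Its lowest library was aged replicate 3, and the ages overlapped (log2 fold change -0.08, SE 0.758, adjusted p = 0.955 from edgeR). Elane, which encodes neutrophil elastase, averaged 9.72 ± 8.48 CPM over the aged (SD, n = 3) and 10.8 ± 7.51 CPM over the young libraries (SD, n = 4). Averaged over the 6 genes, aged replicate 3 stood at -2.52 relative to the young mean on the log2 scale, below the other 6 libraries.

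Of 10 other granule genes, 9 were tested and 3 were called higher and 0 lower, against 9.8% and 6.94% of all genes tested. The median log2 fold change of the 9 was 1.02. The 3 were Pglyrp1, a peptidoglycan recognition protein, with 0.99 (adjusted p = 0.00158), Hp, haptoglobin, with 2.04 (adjusted p = 0.0333), and Adam8, a membrane protease, with 0.84 (adjusted p = 0.0220), all from edgeR. Cd177, a neutrophil surface protein stored in specific granules, stood at 142, 38.5 and 8.52 CPM in the aged libraries and at 5.40 to 21.01 CPM in the young ones, and was not called (log2 fold change 2.33, SE 0.797, adjusted p = 0.0809). Its aged replicate 3 lay inside the young range, as in the specific granule group. Bpi was not tested, with at most 1 count in a library.

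Of 16 mature neutrophil genes, 15 were tested and 12 were called higher, against 9.8% of all genes tested, and 0 lower, with a median log2 fold change of 2.08. This list too was chosen with earlier results known, so the count is no independent support. Several of them, Il1b and Clec4e among them, are also made by other myeloid cells. Il1b, the gene of interleukin-1 beta, had the largest change, with 82.3 ± 28.1 CPM in aged (SD, n = 3) against 8.80 ± 3.38 CPM in young libraries (SD, n = 4), or 3.23 on the log2 scale (adjusted p = 0.0011 from edgeR). By library, Il1b stood at 68.8, 63.4 and 115 CPM in the aged libraries, so that it was highest in aged replicate 3, as were Clec4d, Clec4e, Stfa2l1 and G0s2, and unlike every member. Stfa2l1, a stefin of neutrophils, was at 4.37, 4.23 and 4.49 CPM in the aged libraries and at 0.49 to 0.79 CPM in the young ones (log2 fold change 2.85, adjusted p = 0.000618 from edgeR). Clec4d, a C-type lectin receptor, and Trem1, an activating receptor, had log2 fold changes of 2.69 (adjusted p = 0.00251) and 2.68 (adjusted p = 0.00507). Ly6g, the surface antigen by which mouse neutrophils are sorted, was at 11.9, 3.42 and 2.34 CPM in the aged libraries and at 0.561 to 3.32 CPM in the young ones and was not called (adjusted p = 0.123 from edgeR). In aged replicate 3, Ly6g and the other mature genes not called, Trem3 and Wfdc21, lay inside the young range. Counted in either direction, the mature genes called were 10 without aged replicate 1 (21.5% of all genes called), 13 without aged replicate 3 (8.9%) and 6 with the replicate block (2.1%). Their number was 6 to 14 over all alternatives. The number of azurophil genes called was 0 in each of these alternatives. Whether the groups of genes differed from each other in their age difference was not tested.

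**Figure D3:**
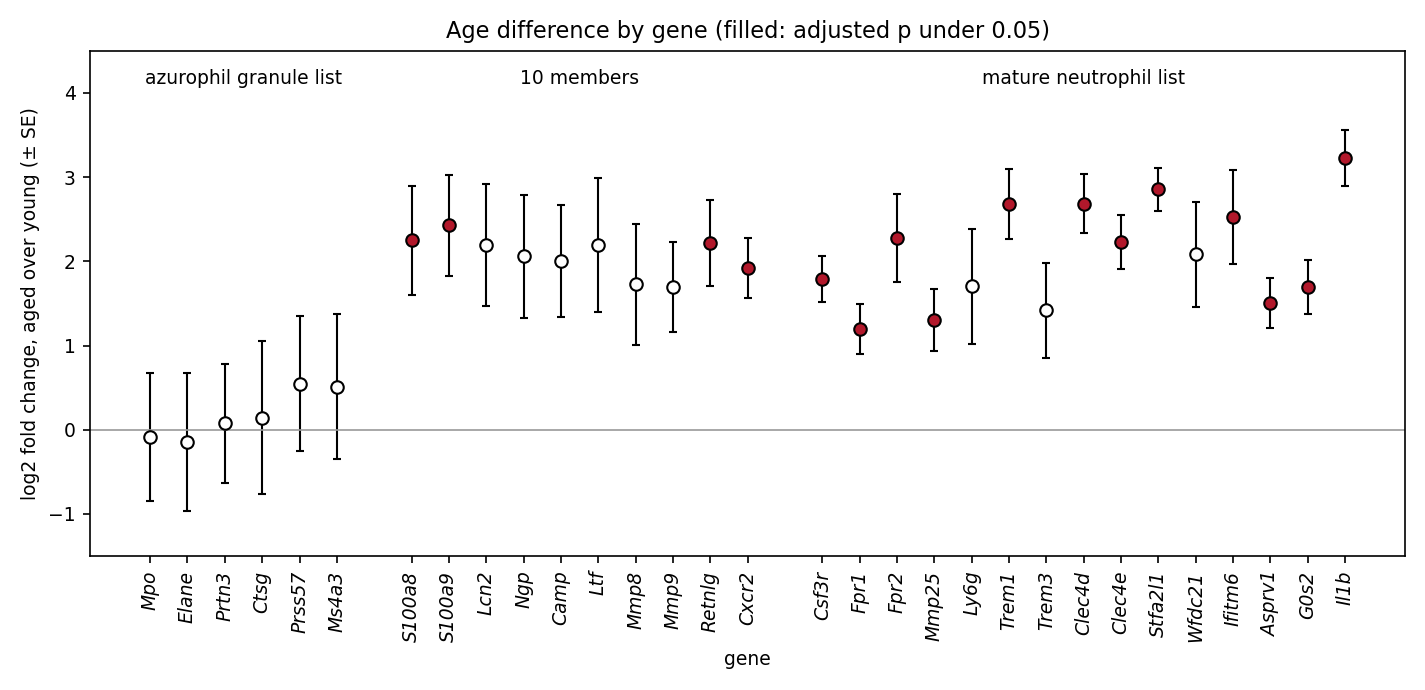
Log2 fold change of aged over young libraries with its standard error, from edgeR, for the 6 azurophil granule genes, the 10 members and the 15 mature neutrophil genes tested, with filled points for an adjusted p under 0.05. The azurophil genes lie around 0 with wide errors, the 10 members lie between 1.69 and 2.43 with 4 filled points, and 12 of the 15 mature genes are filled.

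**Figure D4:**
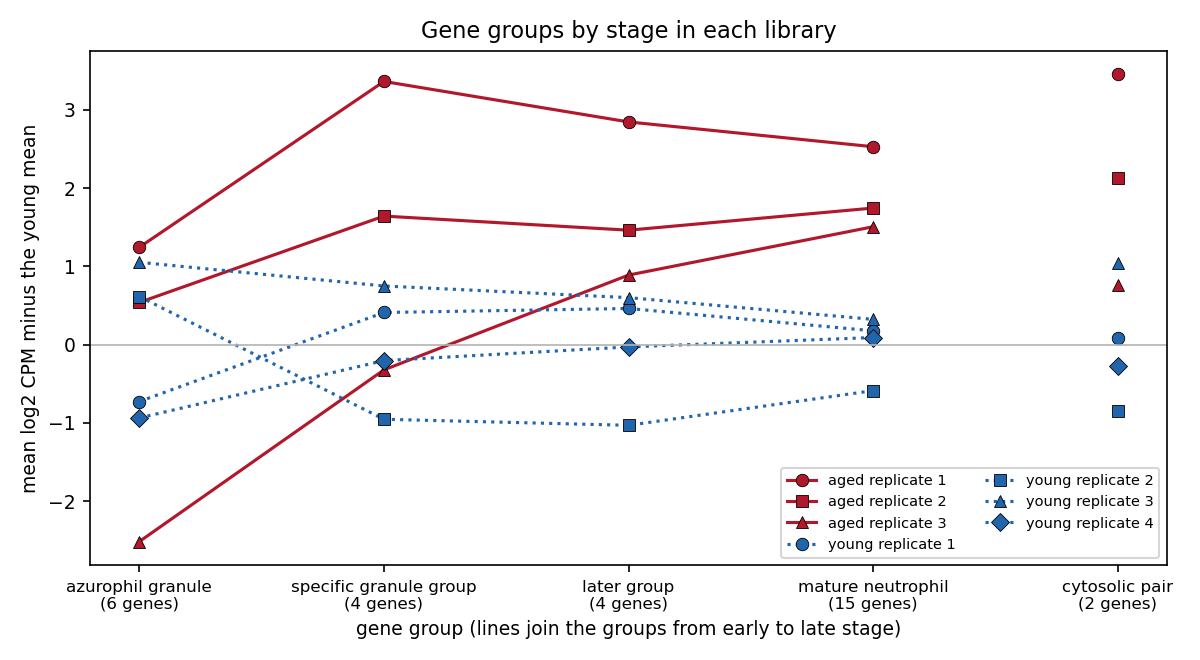
Mean log2 CPM of each gene group minus the mean of the young libraries, for each library, with solid red lines for aged and dotted blue lines for young libraries. Aged replicate 3 rises from -2.52 for azurophil genes over -0.32 for the specific granule group to 1.51 for mature genes, where all 3 aged libraries lie above all 4 young ones. The single mature genes of aged replicate 3 ran from 0.17 to 3.76. The cytosolic pair, which belongs to no granule, stands unconnected at the right.

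Among the aged libraries, only replicate 3 rose throughout in the order of azurophil, specific granule, later and mature genes. In that order the averages relative to the young mean were 1.24, 3.36, 2.84 and 2.53 in aged replicate 1. In aged replicate 2 they were 0.54, 1.64, 1.46 and 1.74. The mature average of 1.51 in aged replicate 3 covered genes from 0.17 to 3.76. Il1b, Clec4d, Clec4e, Stfa2l1 and G0s2 were highest in that library, and Il1b and Clec4e are also made by other myeloid cells. Ly6g, Trem3 and Wfdc21 lay inside the young range there. The part of other cells in this rise was not tested. By log2 CPM with the prior count, all 15 mature genes lay above the young mean in aged replicate 3 and 0 of the 6 azurophil genes did. On that scale all genes of both lists lay above it in aged replicates 1 and 2, although in linear CPM aged replicate 2 was below the young mean for Mpo (22.6 against 25.8) and Elane (10.6 against 10.8). Young replicate 2, the lowest library for all 10 members, was above the young mean for the azurophil genes, by 0.61 on the log2 scale. Azurophil and later transcripts were thus not tied in a fixed proportion in the young libraries either.

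Of 5 granulocyte transcription factors, 0 were called, again near that background, with a median log2 fold change of 0.56. Cebpe, which drives specific granule genes, had 4.72, 3.63 and 0.655 CPM in the aged libraries and 0.788 to 1.74 CPM in the young ones (log2 fold change 1.27, SE 0.589, adjusted p = 0.176 from edgeR). Its lowest library was aged replicate 3, and this was not so for the other 4 factors. Cebpa was highest there, at 13.9 CPM against 5.77 to 6.95 CPM in the young libraries (adjusted p = 0.191), and Gfi1 stood at 45.2 CPM there against 30.1 to 37.7 CPM (adjusted p = 0.107). Cebpd, at 1.12 CPM in aged replicate 3, lay above every young library in all 3 aged ones (adjusted p = 0.062). Spi1, which encodes PU.1, stood at 19.6 to 22.1 CPM in aged and 23.1 to 29.1 CPM in young libraries (adjusted p = 0.0809). Of 13 genes for ligands and receptors of the members and for inhibitors of neutrophil proteases, not all of them members, 9 were tested. Of these, 4 were called higher and 0 lower, against 9.8% and 6.94% of all genes tested, with a median log2 fold change of 1.03. Slpi, an inhibitor of neutrophil elastase, had the largest change, with 56.3 ± 27.1 CPM in aged (SD, n = 3) against 6.39 ± 1.42 CPM in young libraries (SD, n = 4), or 3.13 on the log2 scale (adjusted p = 0.00125 from edgeR). Again in log2 units, Cxcl2, a ligand of Cxcr2, rose by 1.92 (adjusted p = 0.00258), and Ppbp, a ligand from platelets, by 1.80 (adjusted p = 0.0213). Slc22a17, a receptor of lipocalin-2, rose by 1.03 (adjusted p = 0.0245).

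Markers of the other cells that share some of these transcripts were read beside them. Over all genes tested, 9.8% were called higher and 6.94% lower, to be set beside each count that follows. Of 7 monocyte genes, 0 were called higher and 2 lower, namely Csf1r, the receptor of monocyte growth factor, by -1.12 (adjusted p = 0.0031) and F13a1 by -1.40 (adjusted p = 0.0295), both from edgeR. Their summed level was 156 to 446 CPM in aged and 204 to 299 CPM in young libraries, with aged replicate 1 highest. Chil3, which is also on the list of other granule genes, made up 230.04 CPM of the sum in that library. Without it the monocyte sum was 120 to 216 CPM in aged and 158 to 208 CPM in young libraries. Of 10 red pulp macrophage genes, 1 was called higher (Axl), near the 9.8% over all genes, and 2 lower (Vcam1 and Adgre1), against 6.94%. The sum of the 10 was 356 to 589 CPM in aged and 430.2 to 517 CPM in young libraries, and here aged replicate 1 was lowest. The 8 erythroid genes found were not called, and their sum was lowest in young replicate 2 (12626 CPM) and aged replicate 1 (13243 CPM), the lowest and the highest libraries of the members. The 8 B cell genes were not called either, with sums of 1019 to 1895 CPM in aged and 1450 to 2296 CPM in young libraries. Of 5 platelet genes, 4 were tested and all 4 had log2 fold changes above 0 (median 0.90). Of the 4, 1, Ppbp, was called higher, against 9.8% of all genes tested. The platelet sum was 20.2 to 39.5 CPM in aged and 8.20 to 17.3 CPM in young libraries, with no overlap. Of single genes tested, 15.5% had no overlap with aged higher. Without Ppbp, which is also on the list of ligands, it was 15.3 to 28.3 CPM in aged and 7.08 to 14.8 CPM in young libraries, again with no overlap. The part of these cells in the results was not tested.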

How the data were processed

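RNA of CD4+CD25+ splenocytes of 3 aged and 4 young mice was sequenced from cDNA of a SMART-Seq kit, which adds no molecular identifiers, so floors cover counting error only. The authors deposited raw read counts per Ensembl gene for each library. The file names point to HTSeq-count in union mode without strand, the submitters' processing notes name mm10, and the aligner is not given in the sources used here. The authors also deposited a table of signal values, namely these counts over a constant for each library, used here for gene symbols only. Its 6 columns of the authors' own comparison (mean, fold change, its error, statistic, p-values) were not used. Reads on no gene or several genes (13.1% to 20.9%) were left out. Of the 25469 genes in that table, 25326 matched GENCODE M21 by identifier, which supplied coordinates and exon lengths.

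The comparison of ages used the quasi-likelihood test of edgeR 4.0.16 under R 4.3.3, with TMM scaling, the filterByExpr filter and no covariate, and Benjamini-Hochberg adjustment over 13904 genes and a threshold of 0.05. A standard error is the fold change (log2) divided by the root of the F statistic. A group's level in a library is the mean log2 CPM with a prior count of 2. The methods of the study name limma, which was an alternative here, with DESeq2 1.42.0 and the other settings given in the closing section. On counts simulated for 13646 genes with 200 changed 4-fold, edgeR recovered 176 with 22 false calls. In this single simulation the false calls were a larger part of all calls than the threshold of 0.05 aims at. The members and lists were chosen with earlier results of these data known. Named genes are the 10 members, up to 4 called genes with the largest change in each list, the Treg genes and the 5 genes most like the members. Mpo, Elane, Cd177, Ly6g, Prg2, Trem3, Wfdc21, Clec4e, G0s2, Chil3 in the monocyte list, the transcription factors, and the list genes named as called outside that rule, were named after their values were seen.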

Additional observations from a re-analysis of the deposited data

How the results depend on the processing

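All 10 members had log2 fold changes above 0 in each of the 16 alternative fits (DESeq2, limma voom, limma-trend with a prior count of 2, RLE normalization, library size only, no filter on low counts, a minimum of 10 counts per library, removal of haemoglobin, immunoglobulin and mitochondrial genes, the replicate block, and 7 fits that each left out one library). The number of members called was 9 with no filter on low counts, 1 with the replicate block and 1 to 8 when a library was left out. It was 3 or 4 in the other fits, where 6.9% to 10.3% of all genes were called higher. Among the fits that left out a library, the lowest number, 1, came without young replicate 1 and without young replicate 4, and was Cxcr2 both times. The specific granule median was 0.83 to 2.63 and the later group's 1.15 to 2.15 when a library was left out. The genes called between ages numbered 2327, 1016 where a log2 change of 1 or more in size was also asked for, 292 with the replicate block and 1237 to 3058 when a library was left out. The 3 neutrophil lists (azurophil, other granule and mature), the transcription factors and the ligands, receptors and inhibitors together held 44 genes tested in the main fit. Of these, 19 were called, all higher. Counted in either direction, the calls were 8 with the replicate block and 12 to 21 when a library was left out. Of all genes, 16.7%, 2.1% and 8.9% to 21.5% were called in either direction in those fits, in that order. The shares called higher were 9.8%, 1.45% and 5.71% to 11.3%. The labels do not say whether libraries with the same replicate number were handled together. Deviations of same-numbered libraries correlated at -0.0915, -0.292 and -0.138, and those of other pairs at -0.241 to 0.227. So few pairs cannot decide whether a batch was shared. The block is given as an alternative only, and the lower counts under it stand as a limit of the calls. The cause of these changes was not tested. Alternatives for the related lists and for the scaling of the exact tests were added after the data were seen. With 3 against 4 libraries, the two-sided exact test in the form used here cannot go below 0.0571 for a gene. Low genes such as Ly6g or Cebpe rest on few reads.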

Other observations

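Genes of other granulocytes were read in the same libraries. Of 8 genes of eosinophils, basophils or mast cells, 6 were tested, with a median log2 fold change of -1.25. Of these, 0 were called higher and 1 lower, against 9.8% and 6.94% of all genes tested. Cpa3, a mast cell and basophil protease, had -1.28 (SE 0.364, adjusted p = 0.0461 from edgeR). Prg2, the major basic protein of eosinophils, stood at 5.42, 31.5 and 17.6 CPM in the aged libraries (replicates 1 to 3) and at 9.26, 56.2, 88.5 and 18.6 CPM in the young ones (replicates 1 to 4), and was not called (adjusted p = 0.315 from edgeR). The ages overlapped for Prg2.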
